A study of Caenorhabditis elegans with 9 samples.

Results

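hsp-16.20 and hsp-16.21 are neighbouring genes of the hsp-16 family of small heat shock proteins in the nematode Caenorhabditis elegans. They were taken as every spot whose gene name, as given in the platform annotation or as updated through its gene identifier, is one of these names. Each gene has 1 spot, so these are 2 of the 7179 named genes among 20858 features that could be tested, on arrays of 21888 spots. The study put total RNA on 9 spotted 2-colour arrays, 3 for each of 3 genotypes that the labels call wt (wild type), hif-1 and vhl-1. Every array compared an RNA called H, labelled with Cy3, with its N counterpart, of equal genotype and replicate number, labelled with Cy5. Going by the title of the series, which names hypoxia, H was taken to stand for hypoxia and N for normoxia. Alleles, stage, tissue, oxygen level and duration are not given here by the labels, and the mutated genes have no named spot, so their values could not be used to check the genotypes.

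Small heat shock proteins share an alpha-crystallin domain. They bind unfolding proteins without using ATP and hold them in a state from which ATP-driven chaperones such as HSP70 can refold them. In C. elegans the hsp-16 genes are best known as genes that are nearly silent in unstressed worms and strongly switched on by heat through the heat shock transcription factor HSF-1. hif-1 encodes the oxygen-regulated subunit of the hypoxia-inducible factor, and vhl-1 encodes the protein that marks HIF-1 for degradation when oxygen is present. The genotypes thus allow the question whether a response to hypoxia is also seen without HIF-1 and in worms in which HIF-1 is not degraded by this route.

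All values are log2 ratios of H over N with the median of each array set to 0, and are called responses. A response of 1 is a doubling of RNA in H relative to N. Each array compares H and N of 1 genotype only. A smaller response in a genotype therefore cannot be assigned to less RNA in H or to more RNA in N. The base of the logarithm and the direction of the deposited ratio are not stated, so rises in H are the likely direction. The basis is that the titles name N before H and that channel 2 is usually divided by channel 1. With the other direction each rise below would be a fall. In the reading used here F22B5.4, a known hypoxia-induced target of HIF-1, had a response of 2.26 ± 1.21 in wild type (SD, n = 3). This gene was chosen with earlier results of these data known, so its value is no independent check of the direction. Every array has N in Cy5, so a dye effect on a single probe remains in a response. It drops out of differences between genotypes as far as it is equal in them. Correlations between arrays, across features that are not independent replicates, ran from 0.0656 to 0.707 over 36 pairs. Within a genotype they were 0.179 to 0.318 for the hif-1 mutant, 0.216 to 0.507 for wild type and 0.521 to 0.707 for the vhl-1 mutant. The number of arrays limits the precision of every value.

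In the WBcel235 assembly hsp-16.20 (locus tag CELE_F08H9.3) spans positions 14461947 to 14463338 of chromosome V. hsp-16.21 (CELE_F08H9.4) follows at positions 14463520 to 14464428, with 181 bases between the genes. Of hsp-16.21, 582 bases are shared with srz-97, a gene of a chemoreceptor family, and 2 small non-coding RNA genes overlap hsp-16.20. The part of each gene that its probe covers was not analysed here, so RNA of an overlapping gene or of a related hsp-16 gene cannot be told apart from that of the named gene. The annotation holds 8 hsp-16 genes, of which only these 2 have a named spot.

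hsp-16.21 was higher in H on all 9 arrays, and 5.32% of all features were higher on every array with a value. It was called higher in wild type and in the hif-1 mutant. The wild type call was lost in 7 of 19 alternative fits, and the hif-1 mutant call held in all 19. hsp-16.20 was higher in H on all 3 wild type arrays, as were 19.2% of all features, and its responses in the mutants lay on both sides of 0. For both genes the vhl-1 mutant had the smallest mean response of the 3 genotypes, but no difference between genotypes passed the test for either gene.

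In wild type, the response of hsp-16.21 was 0.95 on array 1, 3.67 on array 2 and 1.68 on array 3. All 3 arrays were above 0, and array 2 stood well above the others. The mean of 2.10 ± 1.41 (SD, n = 3), a 4.29-fold rise, passed limma's moderated test with Benjamini-Hochberg adjustment over all features (SE 0.431, 95% interval 1.17 to 3.03, adjusted p = 0.0295). The call rests on single arrays: without wild type array 2 the response was 1.32 (adjusted p = 0.289), and without array 3 it was 2.31 (adjusted p = 0.102). It was also lost with print block centring (2.06, adjusted p = 0.0673) and when named genes were tested alone (adjusted p = 0.111). The print blocks were inferred from gaps in the numbering of the spots.

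The response of hsp-16.20 in wild type was 0.38 on array 1, 2.72 on array 2 and 1.85 on array 3. The lowest array was the same as for hsp-16.21, and so was the highest. The mean was 1.65 ± 1.18 (SD, n = 3), or 3.13-fold, and did not pass in limma (95% interval 0.723 to 2.57, adjusted p = 0.0959). Without wild type array 1 it was 2.28 and passed (adjusted p = 0.0328), as it did at 1.91 with arrays scaled to one spread (adjusted p = 0.0462). Thus 1 of the 2 genes was called higher in wild type, where 0.225% of all features were. Counted from the highest mean response in H, hsp-16.21 ranked 12 and hsp-16.20 ranked 33 of the 20858 features, and with the other direction of the ratio these are ranks from the lowest. By size with the sign left out, which depends on no direction, they ranked 127 and 302.

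In the hif-1 mutant, hsp-16.21 had a response of 2.57 on array 1, 2.33 on array 2 and 3.56 on array 3. These arrays lay closer together than those of wild type. Each was above 0, and 17.9% of all features were above 0 on every array of this genotype with a value. The mean of 2.82 ± 0.65 (SD, n = 3), a 7.07-fold rise, passed in limma (SE 0.431, 95% interval 1.89 to 3.75, adjusted p = 0.00915). Counted from the highest response it ranked 3 of all features and 1 of the named genes, and by size with the sign left out 5 and 2. The call held in each of the 9 fits that left out 1 array, where the response ran from 2.45 to 3.07 and the adjusted p from 0.00244 to 0.0459. In the 10 other alternatives the adjusted p ran from 0.00558 to 0.0488.

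hsp-16.20 had a response of -0.13 on array 1 of the hif-1 mutant and 1.69 on array 2, and no value on array 3, so the fit used 2 arrays here. The arrays fell on opposite sides of 0. On array 1, 42.2% of all features had a lower response than hsp-16.20, and on array 2, 97.4% did. The mean of 0.78 ± 1.28 (SD, n = 2) did not pass in limma (95% interval -0.352 to 1.91, adjusted p = 0.428). On array 1 hsp-16.21, with 2.57, was thus high where its neighbour was near 0. Of the 2 genes, 1 was called higher in this genotype, against 0.475% of all features.

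In the vhl-1 mutant, the response of hsp-16.21 was 0.41 on array 1, 1.68 on array 2 and 0.63 on array 3. All were above 0, with array 2 above the others, and 27.8% of all features were above 0 on every array of this genotype with a value. The mean of 0.91 ± 0.68 (SD, n = 3) did not pass in limma (95% interval -0.0212 to 1.84, adjusted p = 0.194). Without array 2 it was 0.52 (adjusted p = 0.643). hsp-16.20 had responses of 0.64 on array 1, -0.38 on array 2 and 0.13 on array 3. It was lowest on the array where hsp-16.21 was highest. Its mean of 0.13 ± 0.51 (SD, n = 3) did not pass (95% interval -0.792 to 1.06, adjusted p = 0.867). Without array 1 it was -0.12 and without array 2 it was 0.39. Neither gene was called in this genotype, in which 4.03% of all features were called higher. Counted from the highest response hsp-16.21 ranked 913 and hsp-16.20 ranked 8427 of all features, and by size with the sign left out 2300 and 16870.

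**Figure D1:**
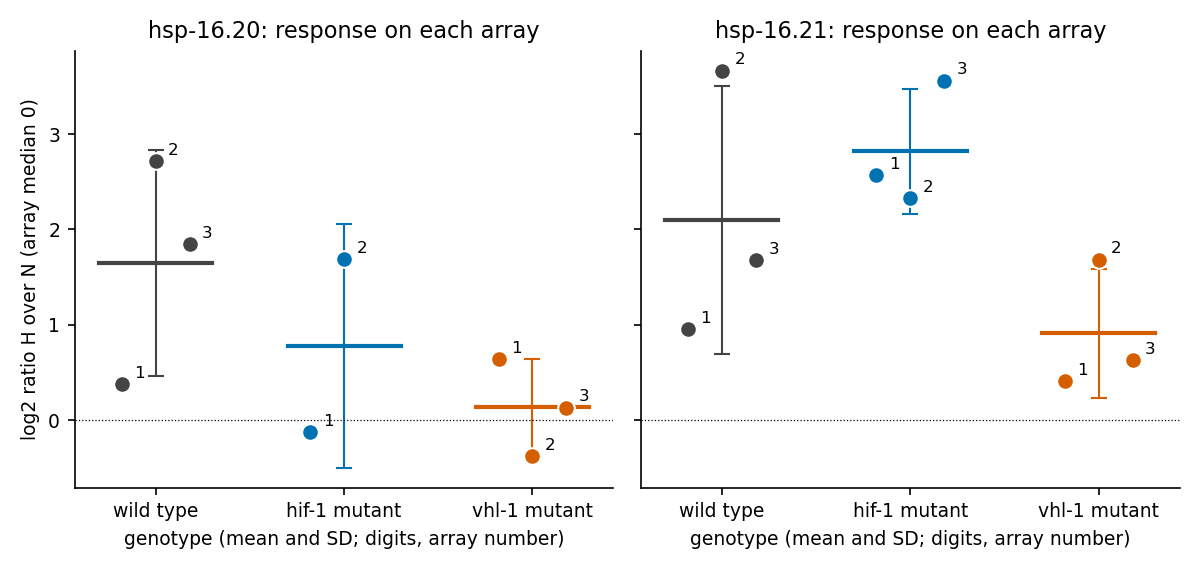
Responses (log2 ratio of H over N, array median 0) of hsp-16.20, left, and hsp-16.21, right, by genotype. Points are arrays with their number, shifted sideways by number, bars are means and whiskers SDs (n = 3, and n = 2 for hsp-16.20 in the hif-1 mutant). All 9 points of hsp-16.21 are above 0, and those of the hif-1 mutant, from 2.33 to 3.56, lie above those of the vhl-1 mutant, from 0.41 to 1.68.

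Averaged over the genotypes with equal weight, hsp-16.21 rose by 1.94 (SE 0.249, limma adjusted p = 0.000226), or 3.85-fold, and hsp-16.20 by 0.85 (SE 0.264, adjusted p = 0.0391), or 1.81-fold. Both genes were thus called in the mean over genotypes, both higher, where 21.5% of all features were called, 2304 of 4493 of them higher. The call of hsp-16.21 held in all 18 alternatives. That of hsp-16.20 was lost in 6 of the 9 fits that left out 1 array: the mean was 0.55 (adjusted p = 0.183) without hif-1 mutant array 2, and between 0.67 and 0.94 (adjusted p 0.0546 to 0.0999) without wild type array 2 or 3 or any vhl-1 mutant array. A response above 0 on every array with a value, as hsp-16.21 had, was seen for 5.32% of features.

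The order of the mean responses differed between the genes. For hsp-16.21 it was hif-1 mutant, wild type and vhl-1 mutant (2.82, 2.10 and 0.91), and for hsp-16.20 wild type, hif-1 mutant and vhl-1 mutant (1.65, 0.78 and 0.13). The arrays of neighbours in each order overlapped, so neighbours did not differ beyond the spread between arrays.

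The comparison of the hif-1 mutant with wild type asks whether a response needs HIF-1. hsp-16.21 was 0.72 higher in the hif-1 mutant (SE 0.609, 95% interval -0.595 to 2.04, limma adjusted p = 0.938). The 2.33 to 3.56 of the hif-1 mutant lay inside the wild type range of 0.95 to 3.67. The difference moved with single arrays: leaving out array 1 of wild type gave 0.147, leaving out its array 2 gave 1.505, and leaving out array 3 of the hif-1 mutant gave 0.35, with an adjusted p from 0.954 to 0.997. hsp-16.20 was lower in the hif-1 mutant by 0.87 on the log2 scale (difference -0.87, SE 0.670, 95% interval -2.33 to 0.593, adjusted p = 0.937). The interval spans H over N ratios from 0.199 to 1.51 times that of wild type. Without hif-1 mutant array 1 the difference of hsp-16.20 was 0.0403 and without array 2 it was -1.78, and leaving out array 1 or 2 of wild type gave -1.502 or -0.33. In limma 0 of the 20858 features (0%) passed in this comparison, and 1239 (5.94%) had an unadjusted p under 0.05. F22B5.4 stood at 0.21 ± 0.48 (SD, n = 3) in the hif-1 mutant, a difference of -2.05 from wild type that did not pass either (adjusted p = 0.603).

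Against wild type, the response in the vhl-1 mutant differed by -1.19 for hsp-16.21 (SE 0.609, 95% interval -2.51 to 0.126, limma adjusted p = 0.536). For hsp-16.20 the difference was -1.52 (SE 0.599, 95% interval -2.82 to -0.209, unadjusted p = 0.0266, adjusted p = 0.418). The arrays of the genotypes overlapped for both genes: for hsp-16.20, wild type array 1 at 0.38 lay below vhl-1 mutant array 1 at 0.64. In this comparison 1 feature (0.00479%) was called lower in the vhl-1 mutant, and 2108 (10.1%) had an unadjusted p under 0.05. Without wild type array 2 the difference was -0.41 for hsp-16.21 and -0.98 for hsp-16.20 (adjusted p = 0.942 and 0.827), and without wild type array 1 it was -1.76 and -2.15 (adjusted p = 0.263 and 0.166). The HIF-1 target F22B5.4 stood at 0.30 ± 0.38 (SD, n = 3) in the vhl-1 mutant. Its difference of -1.96 from wild type did not pass either (limma adjusted p = 0.280). Whether RNA in N or RNA in H differed between these genotypes was not tested.

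hsp-16.21 differed most between the mutants, by -1.91 in the vhl-1 mutant relative to the hif-1 mutant (SE 0.609, 95% interval -3.23 to -0.596). Each vhl-1 mutant array was below each hif-1 mutant array. This did not pass over all features in limma (unadjusted p = 0.00787, adjusted p = 0.768). A vhl-1 mutant wholly below the hif-1 mutant was seen for 5.67% of features, and in limma 0 features (0%) passed while 1336 (6.41%) had an unadjusted p under 0.05. Over the alternatives the difference ran from -2.30 to -1.54. hsp-16.20 differed by -0.65 (95% interval -2.11 to 0.813, adjusted p = 0.909), with -0.13 and 1.69 in the hif-1 mutant among or above the vhl-1 mutant arrays. Without hif-1 mutant array 2 it was 0.26, without hif-1 mutant array 1 it was -1.56, and without vhl-1 mutant array 2 it was -0.39.

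**Figure D2:**
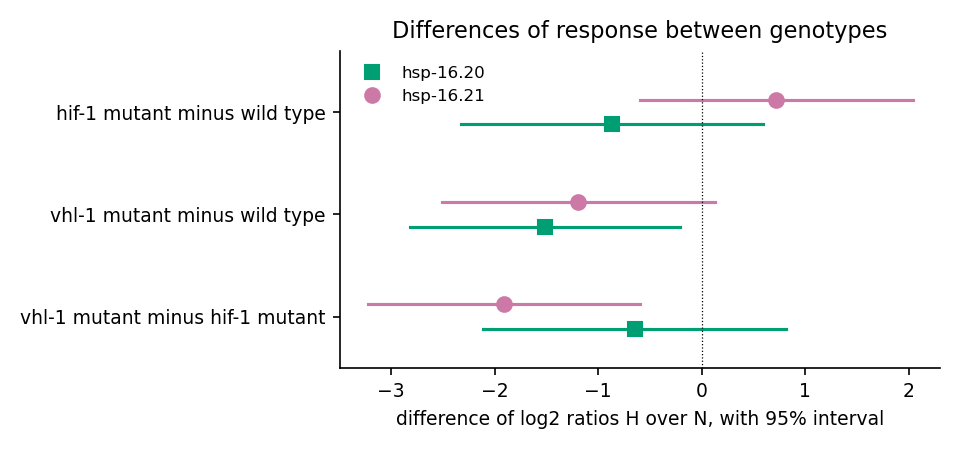
Differences of the response between genotypes (log2 scale, horizontal axis) for hsp-16.20 (squares) and hsp-16.21 (circles), with 95% intervals from limma before adjustment. The interval of hsp-16.21 between the mutants (-3.23 to -0.596) and that of hsp-16.20 for vhl-1 mutant minus wild type (-2.82 to -0.209) exclude 0, and neither passed after adjustment over all features.

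On the 8 arrays with values for both genes, hsp-16.21 responded more than hsp-16.20 on 6. The exceptions were wild type array 3 and vhl-1 mutant array 1, with differences of -0.17 and -0.23. The mean difference was 0.88 ± 1.02 (SD, n = 8), with the largest, 2.70, on hif-1 mutant array 1 and 2.06 on vhl-1 mutant array 2. An exact two-sided sign-flip permutation test gave p = 0.0312 (smallest possible 0.00781), and 0.0938 after Benjamini-Hochberg adjustment over 3 exact tests of this pair, so the difference did not hold after adjustment. By genotype the mean difference was 0.45 for wild type (n = 3), 1.67 for the hif-1 mutant (n = 2) and 0.78 for the vhl-1 mutant (n = 3). The genes have different probes, so a dye effect or a signal from related genes that differs between the probes remains in these differences.

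The responses of the genes had a Pearson r of 0.565 over these 8 arrays (exact permutation p = 0.156, adjusted 0.234) and a Spearman rho of 0.190 (exact permutation p = 0.665, adjusted 0.665). Without the 2 arrays farthest from the median of hsp-16.21, wild type array 2 and vhl-1 mutant array 1, r was 0.199 (n = 6, exact permutation p = 0.694). A relation between the genes across arrays was not shown, and the pooled r rests on wild type array 2, without which it was 0.152. As a description, deviations from the genotype means had an r of 0.445. With 2 or 3 arrays a value within a genotype cannot be given.

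**Figure D3:**
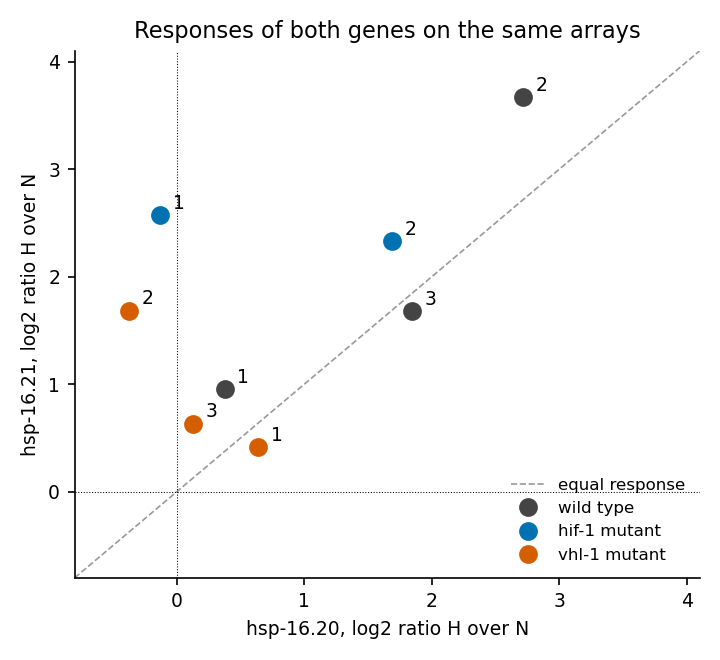
Response of hsp-16.21 (vertical) against that of hsp-16.20 (horizontal) on the 8 arrays with both values, both as log2 ratios of H over N, with the array number beside each point. Points above the dashed line of equal response (6 of 8) have the larger response for hsp-16.21; hif-1 mutant array 1 and vhl-1 mutant array 2 lie farthest above it, at 2.70 and 2.06.

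Other genes of the heat shock response were read from lists of family members. None of the 6 other hsp-16 genes and none of 5 genes of HSF-1 and its regulators had a named spot. Of 10 other small heat shock genes, 1 was measured, ZK1128.7, which carries an alpha-crystallin domain. Its wild type response was 0.01 ± 0.34, with -0.09 ± 0.20 for the hif-1 mutant and -0.31 ± 0.15 for the vhl-1 mutant (SD, n = 3 each; limma adjusted p from 0.379 to 0.992). It was not called in any genotype, and all 9 of its arrays lay between -0.41 and 0.23. ahsa-1, the homologue of an activator of HSP90, was the single measured gene of 54 for HSP90, chaperonins and co-chaperones, and its mean responses lay between -0.34 and 0.08 with no call.

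Of 12 genes of the HSP70 and HSP110 families, 4 were measured. F44E5.4 and F44E5.5, adjacent and nearly identical genes for stress-inducible HSP70, were called higher in both mutants. The means for F44E5.5 were 2.04 in wild type, 2.59 without HIF-1 and 4.06 in the vhl-1 mutant (limma adjusted p = 0.0887, 0.0301 and 0.000788). In the vhl-1 mutant T14G8.3 and T24H7.2, of the HSP70 superfamily, had means of 0.77 ± 0.37 and 0.73 ± 0.27 (SD, n = 3; adjusted p = 0.0840 and 0.103) and at most 0.24 in the other genotypes. Thus 0, 2 and 2 of the 4 were called higher in the respective genotypes and 0 lower, with list medians of 1.07, 1.35 and 2.40 beside medians of 0.01, 0.02 and 0.00 over all features. The called genes were F44E5.4 and F44E5.5 alone, and as they are nearly identical their signals may not be separate. Each list median falls between this pair and the lower T14G8.3 and T24H7.2, so it describes no gene of the list. Of all features 0.225%, 0.475% and 4.03% were called higher and 1.19%, 1.28% and 5.15% lower.

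The HSP70 pair and hsp-16.21 did not follow the same order of genotypes. The mean response of F44E5.4 and F44E5.5 less that of hsp-16.21 was 2.53, 2.74 and 4.13 on the vhl-1 mutant arrays. On the hif-1 mutant arrays it was -1.37, -0.16 and 0.62, and on the wild type arrays 0.16, -2.0 and 1.54. The HSP70 pair thus exceeded hsp-16.21 most on the vhl-1 mutant arrays, which do not overlap those of the other genotypes. This contrast was picked after its values were seen and was not tested. A lack of overlap is common with so few arrays: 18.5% of all features had vhl-1 mutant responses wholly above or below those of wild type. Set against the hif-1 mutant, 11.6% did. These shares are for responses of features, and no share was computed for differences of genes. Across the 9 arrays the r with hsp-16.21 was -0.192 for F44E5.4 and -0.196 for F44E5.5, and 0.212 for F22B5.4, all as descriptions.

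**Figure D4:**
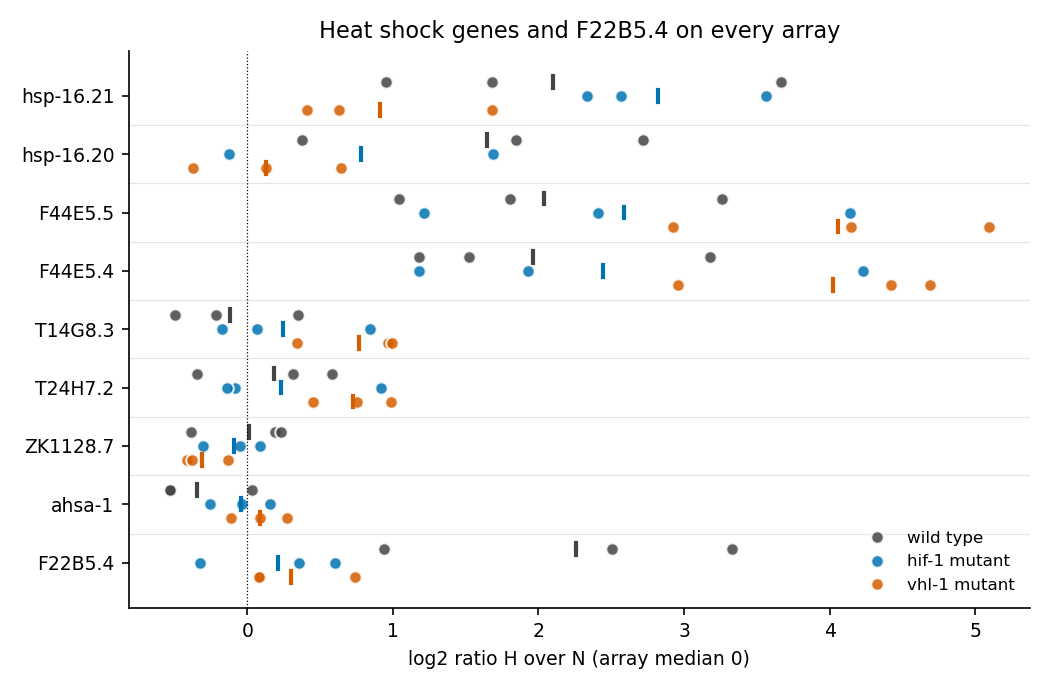
Responses (log2 ratio of H over N, array median 0) on every array with a value for both hsp-16 genes, the 4 measured HSP70 superfamily genes, ZK1128.7, ahsa-1 and the HIF-1 target F22B5.4. Points are arrays coloured by genotype and ticks are means. F44E5.4 and F44E5.5 are highest in the vhl-1 mutant (means 4.03 and 4.06), hsp-16.21 in the hif-1 mutant (2.82) and F22B5.4 in wild type (2.26).

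Around the locus, 6 other named genes within 25000 bases were measured. F08H9.2, the neighbour on the side of hsp-16.20, had mean responses of -0.36 ± 0.13 (n = 3) for wild type, 0.06 ± 0.44 (n = 3) for the hif-1 mutant and 0.07 ± 0.13 for the vhl-1 mutant (SD, n = 2). None of its 8 arrays came above 0.56. F23B12.4, F23B12.7, R02D5.7, R02D5.3 and R02D5.4 had mean responses between -0.54 and 0.68, the lowest for R02D5.7 and the highest for R02D5.3, both in the vhl-1 mutant. None of the 6 was called in any genotype (limma adjusted p from 0.0697 to 0.989), where 1.42%, 1.75% and 9.18% of all features were called in either direction in wild type, the hif-1 mutant and the vhl-1 mutant. With 6 genes at these shares, the count of 0 is no result about the neighbourhood. srz-97, which overlaps hsp-16.21, has no named spot.

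**Figure D5:**
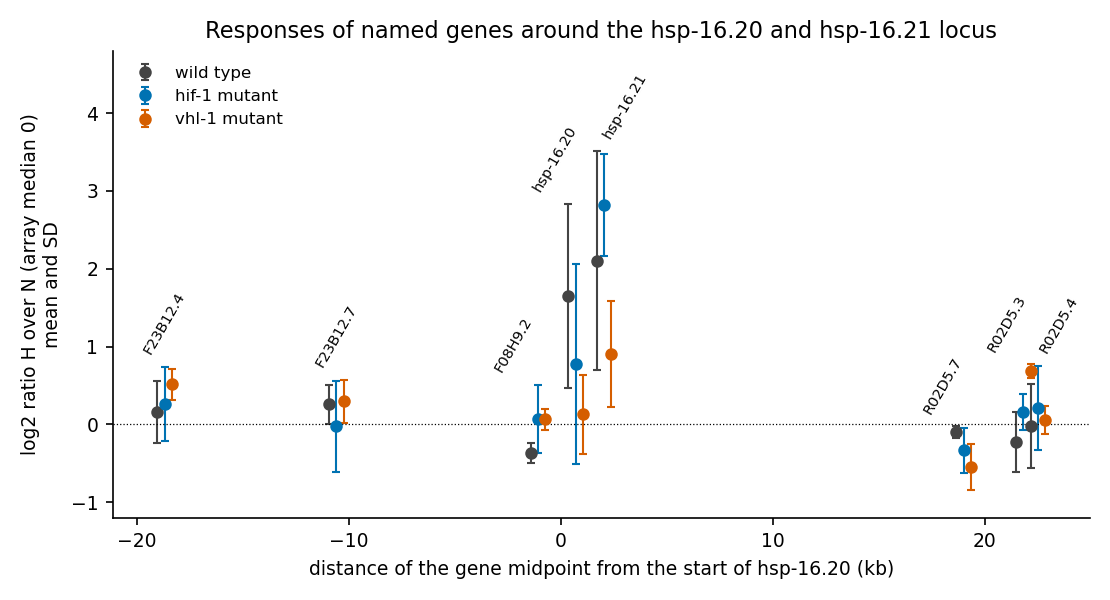
Mean response (log2 ratio of H over N) with SD by genotype for the named genes around the locus, placed by the distance of the gene's midpoint from the start of hsp-16.20 in kb, with genotypes shifted slightly sideways (n = 3, and n = 2 for hsp-16.20 in the hif-1 mutant and F08H9.2 in the vhl-1 mutant). The 6 other genes have means between -0.54 and 0.68, while hsp-16.21 reaches 2.82 and hsp-16.20 reaches 1.65.

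Likeness of pattern was measured as Pearson's r across arrays, as a description. The genes named have the highest r of all genes compared over 8 or 9 arrays, and selection alone raises such values. How high the top r would be among unrelated genes was not tested. Among 6761 named genes with values on all 9 arrays, the genes most like hsp-16.21 were K05F6.4 (r = 0.950), ZK1248.4 (0.899), C44C10.3 (0.885), C07H6.2 (0.878) and F09E10.6 (0.875), where the median gene had 0.0269. Their mean responses were smaller than those of hsp-16.21 in every genotype, between -1.03 and 0.93. In the vhl-1 mutant all 5 were negative, from -1.03 for C07H6.2 to -0.23 for ZK1248.4. C07H6.2 was called lower there (limma adjusted p = 0.0175), as were 5.15% of all features. K05F6.4 and C07H6.2 were negative in every genotype. ZK1248.4 and F09E10.6 were positive in wild type and the hif-1 mutant, and C44C10.3 in the hif-1 mutant alone. Over the 8 arrays of hsp-16.20, the genes most like it among 6801 were F20D6.6 (r = 0.984), T24D5.1 (0.962), C47F8.3 (0.957), B0432.11 (0.951) and R10D12.1 (0.949). R10D12.1 came nearest in size in wild type, and its mean responses were 1.41 in wild type, 0.54 in hif-1 mutant worms and -0.27 in vhl-1 mutant worms. hsp-16.21 ranked 969 in likeness to hsp-16.20, and no gene was among the 5 most alike for both.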

How the data were processed

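The deposited value of a spot on an array was taken as the log2 ratio of channel 2 to channel 1, which the authors had brought close to a median of 0 per array (medians -0.062 to 0.061). How images, background and normalisation were handled is not given in the sources used here, and spot intensities and signal over background were not analysed here. The sign was reversed to give H over N and each array was centred on its median. Of 21888 spots, 7774 (35.5%) had 1 gene name in the platform annotation, and 7741 were matched by gene identifier to the WBcel235 table. Missing cells (4459) were left missing. Spots with a value on 2 or more arrays of each genotype were kept, and spots of one gene averaged.

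In limma 3.58.1 (R 4.3.3), 9 arrays were fitted with 1 mean for each genotype. The Benjamini-Hochberg adjustment covered all 20858 features, with a threshold of 0.05. Both genes, the gene lists and the tests were chosen with earlier results of these data known. Named genes were the members of the heat shock lists and the HIF list with a spot, those within 25000 bases of the locus, and the 5 with the highest r to each gene. The list of genes of other tissues (49) and that of ubiquitin and unfolded protein genes (12) had 0 named spots. Whether replicates were separate cultures is not given, so p-values measure only the spread between these samples, which may be technical. Alternatives were values as deposited, scaled arrays, print block and print layout centring, named genes alone, the arrays of the compared genotypes alone, the replicate number as a block, no filter, robust eBayes, leaving out the unnamed places, and leaving out each array. Print blocks were inferred as the 32 runs of consecutive spot numbers, and print layout as the place of a spot within its run.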

Additional observations from a re-analysis of the deposited data

How the results depend on the processing

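Of 286 values of 16 results under the alternatives, 258 kept their direction and their side of the threshold. Print layout centring and leaving out the places of the inferred print runs without a named spot were chosen after seeing the data. The wild type call of hsp-16.21 was lost at 2.06 with print block centring, at 2.09 with print layout centring, and at an unchanged 2.10 with named genes alone, without the unnamed places and with the wild type arrays alone (adjusted p 0.0511 to 0.111), and its value ran from 1.32 to 2.67 without single arrays. The wild type response of hsp-16.20 passed with scaled arrays (1.91) and ran from 1.11 to 2.28 without single arrays, and its mean over genotypes did not pass with print block (0.86) or print layout centring (0.89) and ran from 0.55 to 1.16 without single arrays. Without hif-1 mutant array 1 its difference of hif-1 mutant and wild type turned to 0.0403 (lowest -1.78). Without hif-1 mutant array 2 its response there turned to -0.13 (highest 1.69) and its difference between the mutants to 0.26 (lowest -1.56). Without vhl-1 mutant array 1 its response there turned to -0.12 (highest 0.39). Where 1 array was left for a genotype, it was assumed to vary like the others. The within-array difference ran from 0.62 to 1.04 without single arrays, with an unadjusted exact permutation p from 0.0312 to 0.0625, and r between the genes from 0.152 to 0.763; with print block centring r was 0.737 (exact permutation p = 0.0493). The causes were not tested. Each gene has 1 spot, so single spots gave no other value.

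Same-numbered arrays deviated together (r over 0.1) in 2 of 9 pairs and 0 arrays correlated best with their own number, so the numbers do not pair the arrays. With the replicate block, hsp-16.21 was at 2.10 in wild type (adjusted p = 0.0148), and no call of either gene changed. The counts of called features, 296 for wild type, 365 for the hif-1 mutant, 1915 for the vhl-1 mutant and 4493 for the mean, ran from 0 to 540, 18 to 426, 302 to 2886 and 1109 to 5153 over the alternatives, each lowest with named genes alone. That fit tested only 7179 features, against 20858 in the reported fit, so its counts are not on the same scale. With scaled arrays 70.6% of the wild type calls and 88.2% of the hif-1 mutant calls were lower in H, against 84.1% and 72.9%. Between genotypes the counts were 0 to 5.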
